A study of Homo sapiens with 8 samples.

Results

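The clustered protocadherins are a family of neighbouring cadherin-like genes on human chromosome 5, and their mRNA was followed here in 4 groups of ovarian cancer cells. Members were taken by symbol alone: PCDHA genes with PCDHAC1 and PCDHAC2 (alpha cluster), PCDHB genes (beta cluster), and PCDHGA, PCDHGB and PCDHGC genes (gamma cluster). The rule found 53 of the 32803 genes in the table, with 15 alpha, 16 beta and 22 gamma members. The rule itself uses no measured value, but the family was picked with earlier results of these data known, so counts over the family are descriptions and support nothing by themselves. The cells were UWB1.289, a human ovarian carcinoma line without functional BRCA1, the same line with BRCA1 put back (UWB1.289+BRCA1), and a derivative of each resistant to PARP inhibitors (Olres-UWB1.289 and Olres-UWB1.289+BRCA1). PARP inhibitors are drugs that block poly(ADP-ribose) polymerases. All 4 groups were grown in medium without drug, and each held 2 libraries: parental deficient cells at passage 29, resistant deficient cells at passage 56, parental proficient cells at passage 10 and resistant proficient cells at passage 45. Resistance and a later passage therefore cannot be told apart. In parental as in resistant cells the proficient group was at the earlier passage, so BRCA1 state and passage cannot be told apart either. Each resistant group is a single derived line, and the labels do not say whether it is 1 clone or whether replicates were separate cultures.

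Clustered protocadherins are cell surface adhesion proteins best known from neurons, where each cell uses its own combination of isoforms and recognises cells that carry the same one. In the alpha and gamma clusters each variable exon has its own promoter and is spliced to constant exons shared by the whole cluster, while each beta gene is a single-exon gene. The last isoforms of the alpha and gamma clusters, called C-type, follow other rules of expression than the rest. Most promoters of the family carry a conserved element with the core CGCT, at which the looping factor CTCF can bind, and silent promoters of the family are known to carry DNA methylation and repressive histone marks.

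The promoters below are a selection among members described further on, and others, such as those of PCDHB5 and PCDHB8, are not shown. All those shown hold CGCT, so they do not stand for its share in the family. Each line gives the 100 bases before the annotated start on the plus strand of chromosome 5, 5′ to 3′ (RefSeq, GRCh38.p14), and capitals mark every CGCT. The first 6 belong to members with high or strongly changed levels in the alpha and beta clusters, the next 3 to gamma A members, and the last 2 to C-type isoforms.
PCDHA10 (chr5:140855797-140855896): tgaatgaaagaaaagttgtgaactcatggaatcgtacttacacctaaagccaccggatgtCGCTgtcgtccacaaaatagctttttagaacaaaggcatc
PCDHB2 (chr5:141094515-141094614): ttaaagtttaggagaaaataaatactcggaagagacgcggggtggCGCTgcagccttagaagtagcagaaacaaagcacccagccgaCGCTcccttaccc
PCDHB16 (chr5:141182287-141182386): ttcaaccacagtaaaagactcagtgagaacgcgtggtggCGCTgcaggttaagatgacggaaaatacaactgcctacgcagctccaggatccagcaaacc
PCDHB10 (chr5:141192253-141192352): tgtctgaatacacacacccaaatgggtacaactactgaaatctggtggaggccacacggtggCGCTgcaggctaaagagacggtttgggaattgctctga
PCDHB14 (chr5:141223243-141223342): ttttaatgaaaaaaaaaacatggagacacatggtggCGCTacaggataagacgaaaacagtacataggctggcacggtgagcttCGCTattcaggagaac
PCDHB15 (chr5:141245295-141245394): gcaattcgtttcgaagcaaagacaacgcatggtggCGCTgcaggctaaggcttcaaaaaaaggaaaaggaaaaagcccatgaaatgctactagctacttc
PCDHGA3 (chr5:141343729-141343828): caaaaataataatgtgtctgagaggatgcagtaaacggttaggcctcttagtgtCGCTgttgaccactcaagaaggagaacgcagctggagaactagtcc
PCDHGA4 (chr5:141354921-141355020): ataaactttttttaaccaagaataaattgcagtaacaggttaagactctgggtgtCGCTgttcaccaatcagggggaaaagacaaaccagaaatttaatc
PCDHGA7 (chr5:141382642-141382741): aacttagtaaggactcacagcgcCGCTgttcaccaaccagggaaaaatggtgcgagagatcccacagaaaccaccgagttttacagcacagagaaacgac
PCDHAC2 (chr5:140966376-140966475): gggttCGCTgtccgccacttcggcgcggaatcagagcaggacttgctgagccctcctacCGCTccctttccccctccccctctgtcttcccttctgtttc
PCDHGC3 (chr5:141475866-141475965): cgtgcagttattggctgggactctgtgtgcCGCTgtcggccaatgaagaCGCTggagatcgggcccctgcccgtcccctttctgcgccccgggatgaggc

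A promoter entry was found for 47 of the 53 members; PCDHA3, PCDHA13, PCDHB6, PCDHB11, PCDHGA12 and PCDHGC5 had none. CGCT lay on the gene's strand within 100 bases before the start in 44 of the 47 (93.6%), against 28.1% of 35116 promoters in the same table; counting both strands the shares were 93.6% and 44.8%. The 3 members without it in that window were PCDHA9, PCDHB8 and PCDHGB2. The longer word GGTGGCGCT, which contains CGCT and was picked from the beta promoters, was present on the gene's strand in 12 of the 47 (25.5%) and in 0.151% of all promoters. The word GATGTCGCT, picked in the same way from the alpha promoters, was present in 9 members (19.1%) and in 0.0313% of all promoters. Both words were picked from these promoters, which are among all promoters too, so their shares are descriptions and no test of enrichment. A match describes the letters only and shows no binding.

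Depth and identity of the libraries were checked first. The libraries held 24094821 to 34394107 counts each, and levels are CPM, read counts scaled to a common library size by TMM factors. BRCA1 mRNA stood at 35.6 CPM in parental deficient, 34.7 in resistant deficient, 202 in parental proficient and 2271 in resistant proficient cells. Markers of ovarian carcinoma summed to 3788 to 8033 CPM per library, with 9 of 10 at 1 CPM or more in 3 groups and all 10 in resistant proficient cells. Of 10 neural markers, 3 or 4 reached 1 CPM, and their sum was lowest in the proficient groups (48.3 to 52.5 CPM in parental and 47.6 to 51.5 in resistant cells), against 82.6 to 83.7 in parental deficient and 156 to 230 in resistant deficient cells. STMN2, RBFOX3, ELAVL3 and ELAVL4 were at 0 counts in both resistant proficient libraries, but had only 0 to 6 counts per group elsewhere. MAP2 held most of the neural sum in resistant proficient cells, at 41.7 CPM. TUBB3 stood there at 4.65 and SYT1 at 2.41 CPM, against 1.72 and 0.919 in parental proficient cells, while SNAP25 was lower (0.500 against 5.23). Fibroblast markers summed to 30.1 to 30.9 CPM in resistant proficient cells, mostly from COL1A2 at 28.5 CPM, and to 11.2 to 70.9 CPM in the other groups. COL3A1, PDGFRB, DCN and LUM were at 0 counts in resistant proficient cells and at 0 to 3 counts per group in the others. The 5 leukocyte markers summed to 7.88 to 8.08 CPM in resistant proficient cells and to 15.8 to 24.7 in the others, and the 4 endothelial markers to 7.98 to 8.70 and 3.73 to 49.9.

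In resistant proficient cells the 3 clusters together held the most reads. The members summed to 127 ± 1.91 CPM (SD, n = 2) in parental deficient, 187 ± 5.23 in resistant deficient, 132 ± 9.97 in parental proficient and 438 ± 13.9 in resistant proficient cells. The parental groups lay close together, and both resistant proficient libraries lay above the other 6. In 47 of the 53 members both resistant proficient libraries lay above all 6 others (13 alpha, 16 beta and 18 gamma members). Among genes kept for testing this held for 46 of 51 members and for 19.8% of all 16221 genes. Mean CPM was higher in resistant than in parental proficient cells for 52 members, PCDHAC2 being the exception. The median log2 change over all genes tested was -0.002 in that comparison. In these bulk libraries, more cells with a transcript and more transcript per cell cannot be told apart.

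**Figure D1:**
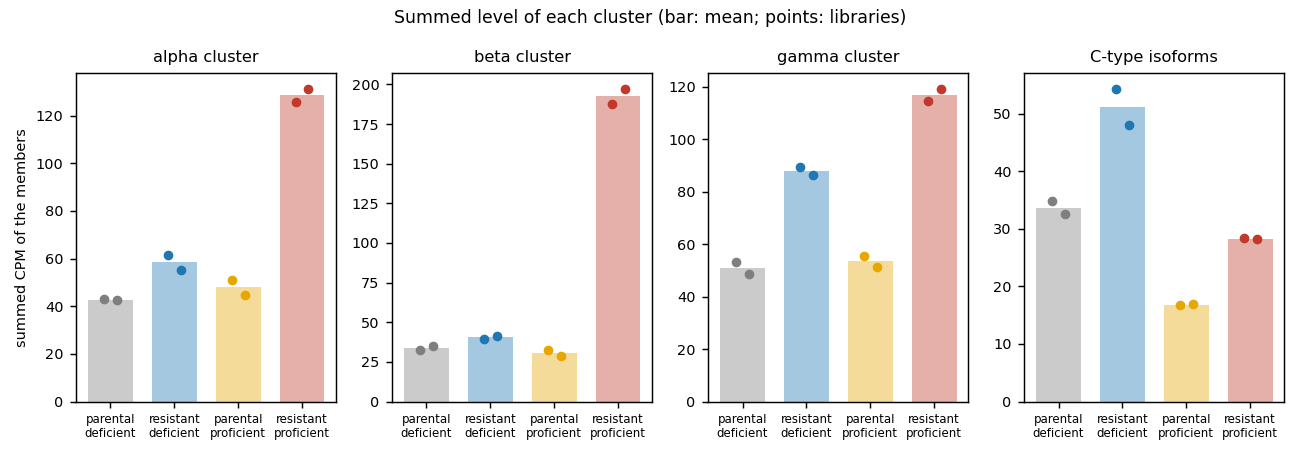
Summed CPM of the alpha, beta and gamma members and of the C-type isoforms (y axis) in the 4 groups (x axis); bars are means and points the 2 libraries. The beta sum is 192 CPM in resistant proficient cells and 30.5 to 40.6 in the other groups, while the C-type sum is highest in resistant deficient cells at 51.2.

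The 3 clusters differed in how far they moved with resistance in proficient cells. The beta sum went from 30.5 ± 2.36 to 192 ± 6.72 CPM, a ratio of 6.30. The alpha sum went from 48.0 ± 4.50 to 128 ± 3.82 CPM (ratio 2.68) and the gamma sum from 53.4 ± 3.11 to 117 ± 3.25 CPM (ratio 2.19). Within gamma, the A subfamily went from 4.49 ± 0.435 to 31.2 ± 0.502 CPM (ratio 6.94), the B subfamily from 38.5 ± 2.86 to 68.4 ± 3.22 (1.78) and the C subfamily from 10.4 ± 0.184 to 17.2 ± 0.467 (1.65). These differences between clusters are descriptions and were not tested. In deficient cells the ratios were smaller in all 3 clusters, at 1.36 in alpha, 1.21 in beta and 1.73 in gamma, with 2.15 for gamma A. The beta value there turned from 0.27 to -0.92 on the log2 scale when the median of the members replaced the sum.

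More members were expressed as well. Members at 1 CPM or more numbered 18 in each parental deficient library, 21 in each resistant deficient library, 17 and 19 in parental proficient and 41 and 42 in resistant proficient cells. The exponential of the Shannon entropy of the read shares counts how many equal members would give the same spread. It was 25.0 and 24.5 in resistant proficient libraries and 15.6 to 18.0 in the other 6. No member was at 0 counts in either resistant proficient library, whereas 3 to 8 members were in each of the others.

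**Figure D2:**
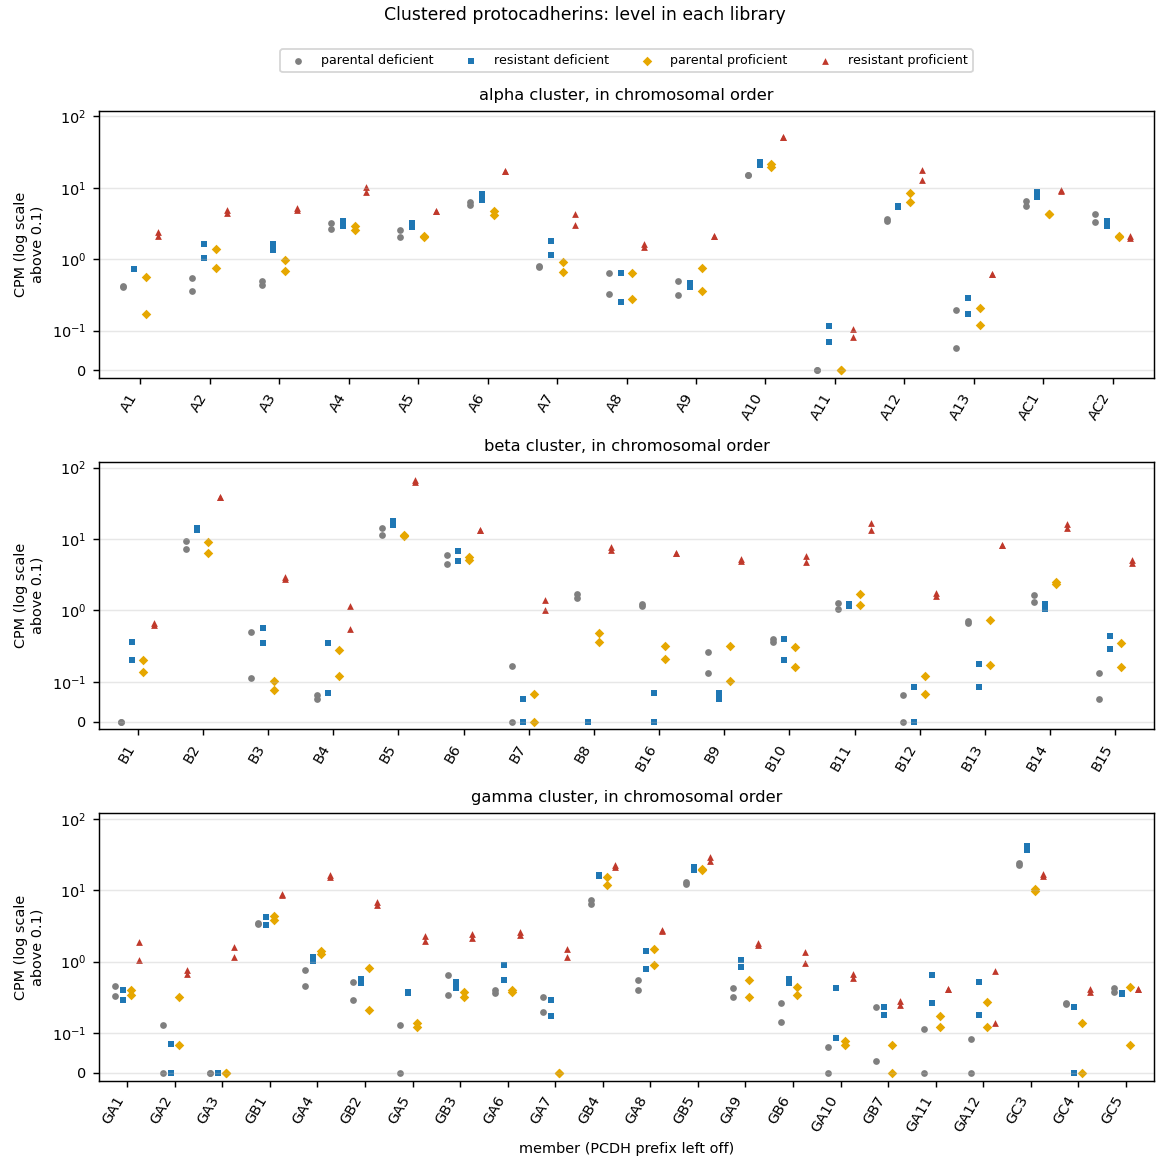
Level of each member (y axis, CPM, log scale above 0.1 and linear below) in chromosomal order (x axis), 1 panel per cluster; each point is a library and the marker shows its group. The red triangles of resistant proficient cells lie above all other points in 47 of the 53 members, and PCDHAC2 and PCDHGC3 are among the exceptions.

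Each gene was then tested with edgeR's quasi-likelihood test, in 1 fit of all 8 libraries with Benjamini-Hochberg adjustment over all genes tested; a gene is said to rise or fall where its adjusted p was under 0.05. The low count filter left 51 members (14 alpha, 16 beta, 21 gamma), without PCDHA11 and PCDHGB7. Between resistant and parental proficient cells 45 of the 51 were higher and 0 lower, while 25.9% of all genes tested were higher and 27.8% lower. At an unadjusted p under 0.05 the counts were 46 and 0, and DESeq2 gave 37 and 0. The median log2 fold change of the 51 was 2.13, against 0.00 over all genes tested. By cluster, 13 of 14 alpha members (median 1.83), 16 of 16 beta members (median 4.10) and 16 of 21 gamma members (median 1.98) were higher. Since the filter keeps a low gene that is high in 1 group only, the median is not that of the whole family.

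The beta cluster held the member with the highest level in resistant proficient cells per kilobase of exon not shared with another annotated gene. All counts of a gene were divided by that length, so any counted reads of shared exons raise the value. PCDHB5 stood there at 22.4 CPM per kb and PCDHB2 at 11.1, ahead of PCDHGB5 at 10.3. In CPM, PCDHB5 stood at 11.5 and 14.1 in the parental deficient libraries, 15.6 and 17.9 in resistant deficient, 11.1 and 11.4 in parental proficient and 62.7 and 67.8 in resistant proficient cells. Both resistant proficient libraries lay far above the other 6, and the log2 change in proficient cells was 2.53 ± 0.13 (SE, edgeR adjusted p = 5.47e-08). PCDHB2 had 7.30 and 9.27, 13.2 and 14.2, 8.95 and 6.33, and 39.0 and 39.0 CPM in the same order of groups. Its log2 change in proficient cells was 2.36 ± 0.17 (edgeR adjusted p = 8.29e-07). PCDHB11 stood between 1.03 and 1.69 CPM in the 6 other libraries and at 13.4 and 16.9 in resistant proficient cells, with a log2 change of 3.40 ± 0.24 (edgeR adjusted p = 5.77e-07). PCDHB14, between 1.04 and 2.49 CPM in the others, reached 14.2 and 16.3, a log2 change of 2.66 ± 0.20 (edgeR adjusted p = 9.86e-07).

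Other beta members were near the detection limit outside resistant proficient cells. PCDHB15 had 0.0574 to 0.434 CPM in 6 libraries and 5.13 and 4.66 in the resistant proficient ones. PCDHB9 ranged from 0.0579 to 0.323 CPM and reached 4.96 and 5.29. PCDHB10 ranged from 0.161 to 0.402 CPM and reached 4.82 and 5.79. In each of these 3 the groups did not overlap, and the log2 changes in proficient cells were 4.22, 4.61 and 4.43. PCDHB7, with 2 counts in the parental proficient libraries together, was 32.5-fold higher in resistant proficient cells (exact 95% interval 8.65 to 275, counting error only). PCDHB1, the first gene of the cluster, reached only 0.625 and 0.666 CPM, and its rise of 1.91 ± 0.63 (edgeR adjusted p = 0.0266) missed the threshold with DESeq2 (adjusted p = 0.185), without a low count filter (0.0532) and without any 1 of the 4 proficient libraries (0.0753 to 0.151).

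In the alpha cluster PCDHA10 took the most reads in every group. It had 14.9 and 15.2 CPM in parental deficient, 22.6 and 21.0 in resistant deficient, 21.5 and 19.8 in parental proficient and 50.7 and 51.4 in resistant proficient cells. The log2 change in proficient cells was 1.31 ± 0.10 (edgeR adjusted p = 1.12e-06). Per kilobase of unshared exon PCDHA12 was the higher of these, with 7.53 against 5.34 CPM per kb in resistant proficient cells. PCDHA12 had 3.62 and 3.44, 5.47 and 5.38, 8.55 and 6.36, and 12.8 and 17.5 CPM in the same order of groups, and rose by 1.02 ± 0.20 in proficient cells (edgeR adjusted p = 0.00112). PCDHA6 stood at 4.11 to 8.28 CPM in 6 libraries and at 17.1 and 16.9 in resistant proficient cells (log2 change 1.94 ± 0.17, edgeR adjusted p = 3.24e-06). PCDHA3, from 0.430 to 1.62 CPM in 6 libraries, reached 4.89 and 5.16 (2.60 ± 0.28, edgeR adjusted p = 1.51e-05). PCDHA4 stood at 2.56 to 3.42 CPM in the 6 others and at 8.85 and 10.1 in resistant proficient cells. PCDHA11, which was not tested, had 0 CPM in all 4 parental libraries and 0.0720 to 0.116 in the resistant ones.

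Within the gamma A subfamily PCDHGA4 made up 15.7 of the 31.2 CPM in resistant proficient cells. It stood at 0.757 and 0.459 CPM in parental deficient, 1.15 and 1.01 in resistant deficient, 1.41 and 1.28 in parental proficient and 15.2 and 16.2 in resistant proficient cells. Its log2 change in proficient cells was 3.54 ± 0.23 (edgeR adjusted p = 3.07e-07). PCDHGA3 had 0 counts in 6 libraries and 1.15 and 1.62 CPM in resistant proficient cells, at least 24.4-fold above parental proficient cells at a floor of 3 counts per group, and this call did not pass with DESeq2. PCDHGA7 had 0 counts in both parental proficient libraries, 0.174 to 0.316 CPM in deficient cells and 1.49 and 1.17 in resistant proficient cells, at least 24.1-fold above the parental ones. The 5 gamma members that were tested and did not pass were PCDHGA2 (edgeR adjusted p = 0.0790), PCDHGA11, PCDHGA12, PCDHGC4 and PCDHGC5. The mean of PCDHGA11 was 0.454 CPM in resistant deficient and 0.416 in resistant proficient cells. PCDHGB7, which was not tested, was 7.12-fold higher in resistant than in parental proficient cells (exact 95% interval 1.63 to 64.5, with 2 counts in the parental group).

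Among gamma B members, PCDHGB5 and PCDHGB4 had the highest gamma levels per kilobase of unshared exon in proficient cells (7.28 and 5.54 CPM per kb in parental, 10.3 and 8.86 in resistant cells) and small changes. PCDHGB5 stood at 13.1 and 12.4 CPM in parental deficient, 19.3 and 21.2 in resistant deficient, 19.6 and 19.3 in parental proficient and 25.8 and 29.4 in resistant proficient cells. Its log2 change was 0.50 ± 0.12 in proficient cells (edgeR adjusted p = 0.00370) and 0.67 ± 0.12 in deficient cells (0.000658). PCDHGB4 had 7.21 and 6.46, 15.6 and 16.5, 15.5 and 11.8, and 21.2 and 22.4 CPM in the same order, with log2 changes of 0.68 ± 0.15 in proficient cells (edgeR adjusted p = 0.00260) and 1.23 ± 0.15 in deficient cells (6.57e-05). PCDHGB2 changed more, from a range of 0.207 to 0.806 CPM in 6 libraries to 6.84 and 6.25 in resistant proficient cells (log2 change 3.73 ± 0.43, edgeR adjusted p = 2.73e-05).

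The sum of the C-type isoforms PCDHAC1, PCDHAC2, PCDHGC3, PCDHGC4 and PCDHGC5 was highest in resistant deficient cells. It was 33.7 ± 1.56 CPM in parental deficient, 51.2 ± 4.40 in resistant deficient, 16.9 ± 0.226 in parental proficient and 28.3 ± 0.134 in resistant proficient cells. PCDHGC3 made up most of it, with 24.2 and 22.2, 41.8 and 37.1, 9.88 and 10.4, and 16.7 and 16.0 CPM in that order of groups. PCDHAC1 had its highest mean in resistant proficient cells, as most members did, and PCDHAC2 in parental deficient cells. PCDHGC4 and PCDHGC5 also had their highest mean in resistant proficient cells, but on 21 and 22 counts, against 17 and 26 in parental deficient cells. For PCDHGC5 a parental deficient library (0.428 CPM) and a parental proficient library (0.444 CPM) lay above both resistant proficient ones. For PCDHGC3, all 4 deficient libraries lay above all 4 proficient ones, and within each background resistant cells were higher. It rose with resistance by 0.77 ± 0.11 on the log2 scale in deficient cells (edgeR adjusted p = 0.000164) and by 0.69 ± 0.12 in proficient cells (0.000490), and the difference of these effects was -0.07 ± 0.16 (0.735). Per kilobase of unshared exon it was the highest member in deficient cells, at 7.13 CPM per kb in parental and 12.1 in resistant cells, but not in proficient cells, at 3.11 and 5.04.

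PCDHAC2 was the only member without a higher mean in resistant than in parental proficient cells. Its values were 4.28 and 3.27 CPM in parental deficient, 3.46 and 2.92 in resistant deficient, 2.06 and 2.11 in parental proficient and 1.98 and 2.12 in resistant proficient cells. The log2 change in proficient cells was -0.02 ± 0.25 (edgeR adjusted p = 0.946), and its sign changed with the scaling (0.01 with RLE factors and 0.03 with library totals alone). PCDHAC1 went in proficient cells from 4.31 and 4.32 CPM to 8.88 and 9.20 (log2 change 1.07 ± 0.17, edgeR adjusted p = 0.000300). PCDHGC4 and PCDHGC5 had at most 0.444 CPM in any of the 8 libraries.

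**Figure D3:**
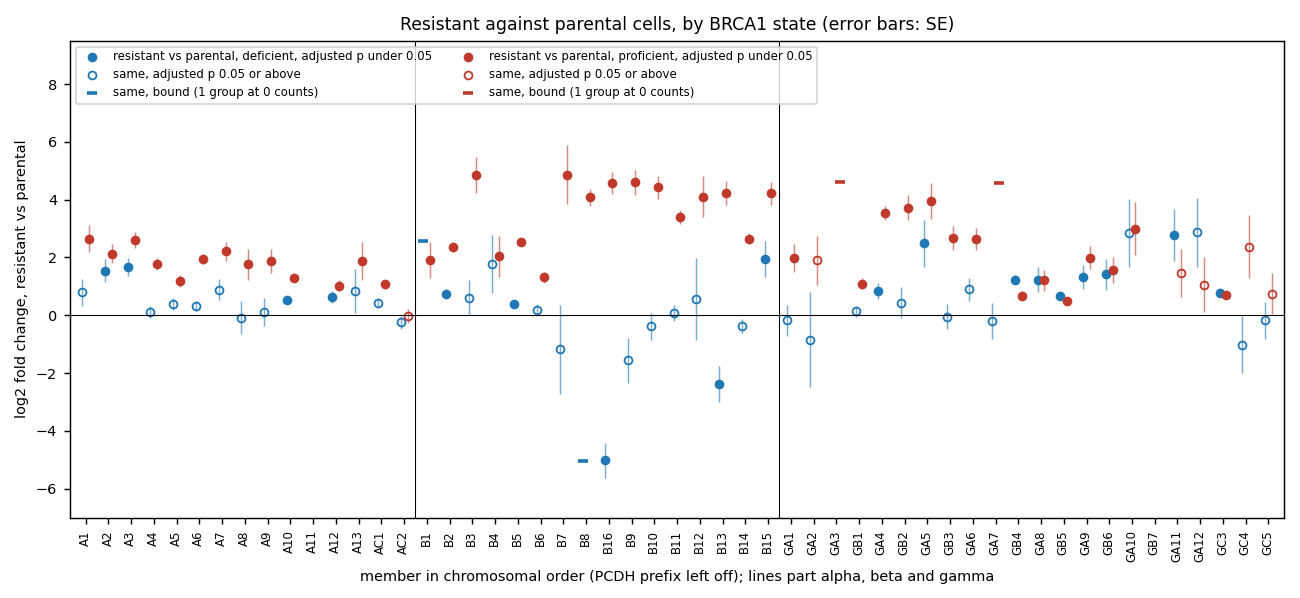
Log2 fold change of resistant against parental cells (y axis) for each member in chromosomal order (x axis), in deficient (blue) and proficient (red) cells; bars are SE, open points had an adjusted p of 0.05 or above, and dashes are bounds where a group had 0 counts. Beta members lie between 1.32 and 4.86 in proficient cells, while in deficient cells PCDHB8, PCDHB16 and PCDHB13 lie well below 0.

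In deficient cells fewer members moved, and some fell. Between resistant and parental deficient cells 17 of the 51 members were higher and 3 lower, while 28.9% of all genes tested were higher and 27.0% lower. The median log2 change was 0.44, against 0.03 over all genes tested. By cluster, 4 of 14 alpha members were higher (median 0.47), 4 of 16 beta members were higher and 3 lower (median 0.13), and 9 of 21 gamma members were higher (median 0.77). In the alpha cluster these were PCDHA2, PCDHA3, PCDHA10 and PCDHA12, and in the beta cluster PCDHB1, PCDHB2, PCDHB5 and PCDHB15. In the gamma cluster they were PCDHGA4, PCDHGA5, PCDHGA8, PCDHGA9, PCDHGA11, PCDHGB4, PCDHGB5, PCDHGB6 and PCDHGC3. PCDHA2 went from 0.362 and 0.545 to 1.04 and 1.62 CPM in deficient cells, without overlap (log2 change 1.55 ± 0.40, edgeR adjusted p = 0.00649), and from 1.37 and 0.760 to 4.82 and 4.46 in proficient cells. The count of higher members fell to 9 when the 2 deficient groups were fitted alone (37 members tested) and to 10 without parental deficient replicate 2. PCDHA2, PCDHA12, PCDHGA4, PCDHGB6 and PCDHB5 were among the calls lost when 1 library was left out. DESeq2 called 12 members higher and 3 lower, without PCDHGA4, PCDHGA8, PCDHGA9, PCDHGA11 and PCDHGB6. The call of PCDHGB6 was also lost without a low count filter and with the replicate block.

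PCDHB8, PCDHB16 and PCDHB13 fell in resistant deficient cells and had high levels in resistant proficient cells. PCDHB8 had 1.71 and 1.49 CPM in parental deficient cells and 0 counts in both resistant deficient libraries, at least 33.1-fold lower (edgeR adjusted p = 6.84e-06). In proficient cells it stood at 0.363 and 0.484 CPM before and 7.60 and 7.08 after resistance. PCDHB16, its neighbour, went from 1.22 and 1.15 to 0.0720 and 0 CPM in deficient cells, a ratio of 36.8 (exact 95% interval 9.84 to 309, edgeR adjusted p = 5.49e-05), and from 0.323 and 0.207 to 6.32 and 6.41 in proficient cells. PCDHB13 went from 0.658 and 0.717 to 0.180 and 0.0868 CPM in deficient cells (log2 change -2.38 ± 0.61, edgeR adjusted p = 0.00674) and from 0.726 and 0.173 to 8.36 and 8.20 in proficient cells. The 3 falls passed the test under every alternative run. PCDHB1 moved the other way in deficient cells, from 0 counts to 0.360 and 0.203 CPM, at least 5.93-fold higher (edgeR adjusted p = 0.00388).

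BRCA1 state in the parental cells, which differed in passage too, went with smaller and mixed differences. Between parental proficient and parental deficient cells 9 members were higher and 7 lower, while 32.3% of all genes tested were higher and 30.1% lower, and the median log2 difference was 0.06. The higher members were PCDHA2, PCDHA10, PCDHA12, PCDHB1, PCDHB14, PCDHGA4, PCDHGA8, PCDHGB4 and PCDHGB5, and the lower ones PCDHA6, PCDHAC1, PCDHAC2, PCDHB8, PCDHB16, PCDHGA7 and PCDHGC3. DESeq2 called 6 higher and 5 lower, without PCDHA2, PCDHB14, PCDHGA8, PCDHA6 and PCDHAC1, and PCDHB14 did not pass with the GC trend removed either (edgeR adjusted p = 0.0587). PCDHGC3 was lower in proficient cells by a log2 difference of -1.19 ± 0.12 (edgeR adjusted p = 6.17e-06), and PCDHA12 higher by 1.07 ± 0.21 (0.000987). The difference of PCDHA10, 0.46, became 0.15 once each library's trend with GC content was removed (edgeR adjusted p = 0.161), and that of PCDHGC3 became -0.76 (5.45e-07). The median transcript GC of gamma members was 55.2%, against 47.9% for alpha, 47.6% for beta and 48.5% for all tested genes with a value.

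Among resistant cells the BRCA1 groups, which differed in passage too, stood far apart. Between resistant proficient and resistant deficient cells 42 members were higher and 2 lower, while 36.3% of all genes tested were higher and 37.5% lower, and the median log2 difference was 1.74. The median was 1.46 in the alpha, 3.73 in the beta and 1.33 in the gamma cluster. With the GC trend removed 40 members were higher, and PCDHA5, PCDHA13, PCDHGB4 and PCDHGB6 were lost. The log2 difference of PCDHGB4 then went from 0.44 to 0.02 (edgeR adjusted p = 0.859). Those of PCDHA10 and PCDHA4 shrank from 1.23 to 0.68 and from 1.57 to 0.94 and still passed, while that of PCDHGB5 grew from 0.44 to 0.88. The lower members were the C-type isoforms PCDHGC3, at -1.27 ± 0.11 (edgeR adjusted p = 1.54e-06, and -0.64 after removal of the GC trend), and PCDHAC2, at -0.63 ± 0.24 (0.0317). The call of PCDHAC2 was lost with DESeq2 (adjusted p = 0.143) and without resistant deficient replicate 1, parental proficient replicate 1 or either resistant proficient library (0.0513 to 0.163). PCDHB8 was at least 153-fold higher in resistant proficient cells, and PCDHGA3 at least 28.3-fold, though PCDHGA3 did not pass with DESeq2. The 7 members that did not pass were PCDHAC1, PCDHB1, PCDHGA10, PCDHGA11, PCDHGA12, PCDHGC4 and PCDHGC5.

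The test of the difference between the resistance effects in both backgrounds placed 26 members higher in proficient cells and 0 lower, while 21.4% of all genes tested were higher and 25.3% lower. At an unadjusted p under 0.05 the counts were 30 and 2, and DESeq2 gave 20 and 0. The 26 were 7 alpha, 12 beta and 7 gamma members, and the median log2 difference of the 51 was 1.64, against -0.08 over all genes tested. PCDHB5 differed by 2.14 ± 0.18 (edgeR adjusted p = 4.45e-06), PCDHGA4 by 2.70 ± 0.38 (0.000192) and PCDHA10 by 0.77 ± 0.14 (0.00117). Members that did not pass this test included PCDHA2, PCDHA3, PCDHA12, PCDHAC2, PCDHB1, PCDHB15, PCDHGB4, PCDHGB5 and PCDHGC3. The value of PCDHGB4 was negative, at -0.55 ± 0.21 (edgeR adjusted p = 0.0538), and passed with the GC trend removed (-0.75, 0.000908).

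Promoters of C-type isoforms held more CpG dinucleotides than those of other members. In the 300 bases around the start (250 before and 50 after), the 4 C-type isoforms with an entry had 15 to 27 CpG (median 20.5), and the 43 other members 2 to 16 (median 7), where the median of all promoters was 14. Members of high CpG count outside the C-type group were gamma B genes, with 16 in PCDHGB6, 14 in PCDHGB5 and 13 in PCDHGB4. Fewest were found in PCDHGA4, with 2, and PCDHA2, with 3. DNA methylation was not measured here.

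**Figure D4:**
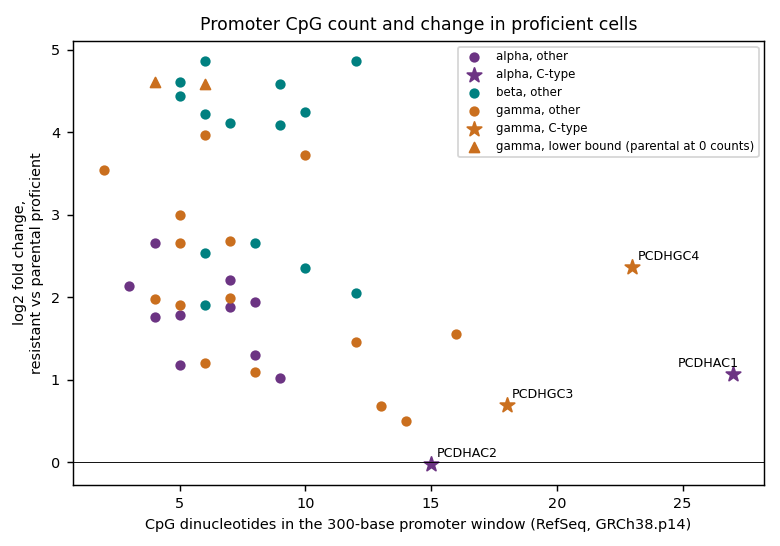
CpG count in the 300-base promoter window (x axis) against the log2 fold change of resistant over parental proficient cells (y axis), 1 point per tested member with a promoter entry; triangles are lower bounds. The 4 C-type isoforms (stars) have 15 to 27 CpG and lie at -0.02 (PCDHAC2), 0.69 (PCDHGC3), 1.07 (PCDHAC1) and 2.37 (PCDHGC4), while the other members spread from 0.50 to 4.86, a range that holds the last 3.

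Genes of silencing, DNA methylation and looping were read from lists picked by function. The list for silencing and DNA methylation also holds the demethylating enzymes TET1, TET2 and TET3. Of its 22 measured genes, 8 were higher and 8 lower in resistant deficient cells against their parental cells (median log2 change -0.08), where 28.9% of all genes tested were higher and 27.0% lower (median 0.03). In resistant proficient cells 1 was higher and 10 lower (median -0.16), against 25.9% and 27.8% of all genes (median 0.00). MPHOSPH8, a histone H3 lysine 9 methyl reader of the HUSH silencing complex, stood at 29.6 and 31.6 CPM in parental deficient, 39.7 and 44.6 in resistant deficient and 27.9 and 29.1 in parental proficient cells. In resistant proficient cells it had 2 counts in 1 library and 0 in the other, a 755-fold lower level than in parental proficient cells (exact 95% interval 209 to 6238, counting error only; edgeR adjusted p = 2.17e-09). Its HUSH partners TASOR and PPHLN1 fell in both backgrounds, and more in deficient cells. TASOR went from 150 to 86.3 CPM in deficient cells (log2 change -0.79, edgeR adjusted p = 2.73e-05). In proficient cells it went from 238 to 192 CPM (-0.31, 0.0109). PPHLN1 went from 119 to 56.4 CPM in deficient cells (-1.07, 5.37e-07) and from 125 to 97.2 CPM in proficient cells (-0.36, 0.000819). SMCHD1, a chromatin protein that represses clustered protocadherins, fell from 229 to 145 CPM in proficient cells (log2 change -0.66, edgeR adjusted p = 1.18e-05), while its change in deficient cells was -0.05 (0.541). DNMT3B, a DNA methyltransferase, fell in both backgrounds, from 42.0 to 12.5 CPM in deficient and from 112 to 31.4 CPM in proficient cells. ATF7IP, a partner of the methyltransferase SETDB1, rose in proficient cells from 321 to 513 CPM. RCOR1, a partner of the repressor REST, fell in deficient (92.7 to 54.0 CPM) and proficient cells (162 to 135.0 CPM). Whether any of these levels bears on the clusters was not tested.

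Of 16 CTCF and cohesin genes, 2 were higher and 5 lower in resistant deficient cells, and 1 was higher and 7 lower in resistant proficient cells (median log2 change -0.13 and -0.11, against 0.03 and 0.00 over all genes tested). Of all genes, 28.9% were higher and 27.0% lower in the first comparison and 25.9% and 27.8% in the second. CTCF itself ranged over group means from 55.6 to 67.0 CPM. Its log2 change with resistance was 0.09 in deficient (edgeR adjusted p = 0.315) and -0.17 in proficient cells (0.0622), and it was higher in parental proficient than in parental deficient cells by 0.27 (0.00692). STAG2, a cohesin subunit, fell from 369 to 244 CPM in deficient and from 623 to 280 CPM in proficient cells. PDS5B, a regulator of cohesin, fell in proficient cells from 142 to 65.1 CPM, and HDAC8, a cohesin deacetylase, rose there from 27.2 to 45.6 CPM. NIPBL, the cohesin loader, had 0.02 in deficient and -0.06 in proficient cells on the log2 scale and passed in neither.

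**Figure D5:**
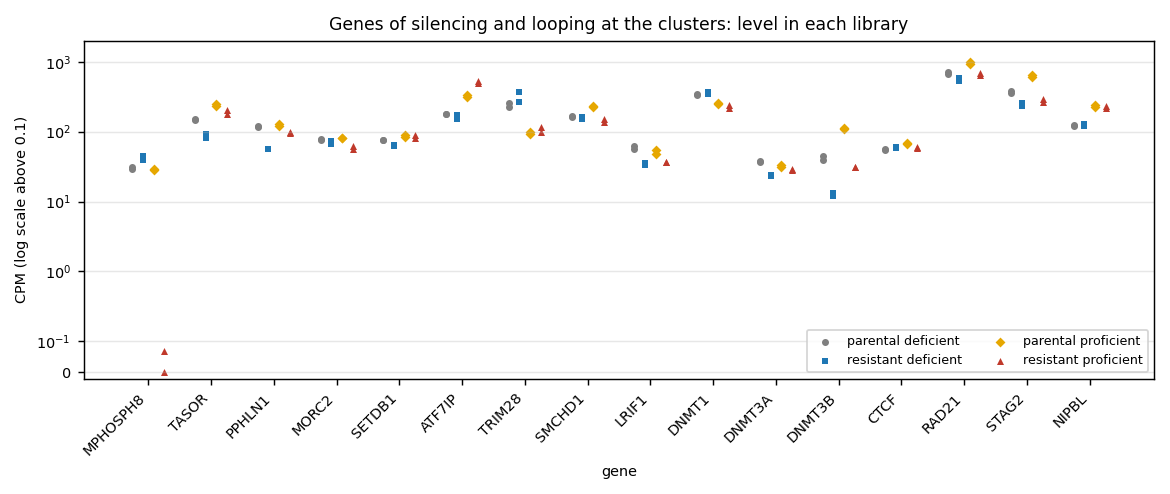
Level (y axis, CPM, log scale above 0.1 and linear below) of 16 genes of silencing and looping (x axis) in each library, with 1 marker per group. MPHOSPH8 lies at 0 and 0.0694 CPM in resistant proficient libraries and at 27.9 to 44.6 in the other 6, while group means of CTCF run from 55.6 to 67.0 CPM.

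Genes beside the clusters on 5q31 were read in the same comparisons. Of 15 tested neighbours, 13 were higher and 0 lower in resistant deficient cells (median log2 change 0.83), where 28.9% of all genes tested were higher and 27.0% lower (median 0.03). In resistant proficient cells 8 were higher and 1 lower (median 0.25), against 25.9% and 27.8% of all genes (median 0.00). In the direct comparison of resistant cells 3 neighbours were higher and 8 lower in proficient cells (median -0.32), against 36.3% and 37.5% of all genes (median -0.02). Among tested neighbours TAF7, CD14, ZMAT2, IK and TMCO6 had their highest mean in resistant proficient cells, like most members of the clusters. For TMCO6 the means of resistant proficient (12.7 CPM) and resistant deficient cells (12.4 CPM) lay close together. ZMAT2 had means of 80.8 CPM in parental deficient, 128.5 in resistant deficient, 106.0 in parental proficient and 142.0 in resistant proficient cells. TAF7, a transcription factor subunit gene lying between the beta and gamma clusters, rose by 0.47 in deficient and 0.48 in proficient cells, and its difference between backgrounds was 0.01 (edgeR adjusted p = 0.950). HARS1, a histidyl-tRNA synthetase gene, rose by 0.76 in deficient and 0.41 in proficient cells. ARAP3, a GTPase regulator gene, rose by 0.98 in deficient cells and gave 0.12 in proficient cells, where it did not pass. CD14, which encodes a receptor for bacterial lipopolysaccharide, had 2.47 CPM in parental and 21.3 in resistant proficient cells (log2 change 3.10, edgeR adjusted p = 1.67e-06).

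Other members of the cadherin superfamily include the non-clustered protocadherins, of which PCDH1 and PCDH12 also lie on 5q31, beyond the gamma cluster. In the resistance comparisons 28.9% of all genes tested were higher and 27.0% lower in deficient cells (median log2 change 0.03), and 25.9% and 27.8% in proficient cells (median 0.00). Of 12 non-clustered protocadherins 7 were tested, with 3 higher and 2 lower in resistant deficient cells and 2 higher and 1 lower in resistant proficient cells (median log2 change 0.86 and 0.27). PCDH19 went from 111 to 3.31 CPM in deficient cells (log2 change -5.08) and from 52.1 to 159 CPM in proficient cells (1.61). PCDH17 rose in proficient cells from 0.576 to 4.50 CPM, and PCDH1 in deficient cells from 53.6 to 97.1 CPM. PCDH7 fell in both backgrounds, by 0.71 in deficient and 1.91 in proficient cells on the log2 scale. Of 10 classical cadherin and catenin genes, 7 were higher and 0 lower in resistant proficient cells, among them CDH6 (415 to 811 CPM), CDH1, which encodes E-cadherin (88.1 to 175 CPM), and CTNNB1, which encodes beta-catenin (514 to 791 CPM). In deficient cells 5 of the 10 were higher, among them CDH4 (2.62 to 14.9 CPM), and 3 lower, and the medians of the list were 0.12 in deficient and 0.57 in proficient cells. Of 18 genes for intracellular partners and proteases of protocadherins, 6 were higher and 8 lower in resistant proficient cells, and 3 were higher and 6 lower in deficient cells (medians 0.04 and -0.09). CYFIP2, a WAVE complex gene, rose in deficient cells from 45.7 to 125.0 CPM, and NCSTN, a gamma-secretase subunit gene, fell there from 197 to 128 CPM and rose in proficient cells from 192 to 291 CPM. ABI2, also of the WAVE complex, passed in neither resistance comparison. ADAM10, a protease that cleaves protocadherins, stood at 261, 171, 354 and 404 CPM in parental deficient, resistant deficient, parental proficient and resistant proficient cells.

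Sequence shared between members limits how far single values can be read. Of all 75-base windows of a member's annotated transcripts, the share found in another member was 18.6% to 59.4% in the alpha cluster (median 46.5%) and 29.7% to 69.3% in the gamma cluster (median 43.4%), where isoforms share constant exons. In the beta cluster it was 0% (PCDHB1) to 34.6% (median 8.74%). How reads matching several members were counted is not given in the sources used here, so reads of constant exons may be missing or assigned to any isoform. PCDHGA3 had 0 counts in 6 libraries in which the gamma members together held 1379 to 2981 counts. The handling of such reads was not tested. Among closest pairs, counting only windows found in at most 4 members, PCDHGA8 and PCDHGB4 shared 2192 windows and PCDHB13 and PCDHB8 611. Next came PCDHA7 and PCDHA9 with 563, PCDHA2 and PCDHA3 with 509, PCDHGB4 and PCDHGB5 with 433 and PCDHB10 and PCDHB9 with 427. PCDHB8 and PCDHB13 both fell in deficient and rose in proficient cells, and their values are not fully independent of each other. The same limit holds for PCDHA2 with PCDHA3 and for PCDHGB4 with PCDHGA8 and PCDHGB5, all called higher with resistance in both backgrounds.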

How the data were processed

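Total RNA of 8 libraries was measured by RNA-seq. The deposited file holds whole-number read counts per gene symbol, without normalisation. Per the submitters' processing notes the build was GRCh37 and the tools named, without roles, include featureCounts, DESeq2 1.24.0, Trimmomatic 0.39 and Subread 2.0.1. Neither annotation, strandedness nor the handling of multi-mapping reads is given in the sources used here. Another 31 rows, named like members with the suffix _1, were at 0 in all libraries and were not used. Even counts were more common than odd ones (56.7% to 62.0% of the nonzero counts under 20), so the mates of a pair may have been counted apart, and counting intervals may be too narrow.

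Groups were taken from the sample titles. edgeR 4.0.16 in R 4.3.3 was run with TMM factors, filterByExpr (16221 of 32803 genes kept) and 1 fit of all 8 libraries by group alone (4 residual degrees of freedom); SE was the fold change over the square root of F. A call is an adjusted p under 0.05. Bounds use a floor of 3 counts over a group. Nothing states that replicates were separate cultures, so p-values measure only the spread between libraries, which may be technical. Replicates differed by more than sampling noise (chi-square per degree of freedom 4.16 to 22.8). Deviations of same-numbered libraries correlated at -0.10 to 0.21, so the numbers were not taken to pair samples.

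Alternatives were RLE factors, library totals, no filter, at least 1 CPM in 2 libraries, DESeq2 1.42.0, the compared groups alone, the replicate block, removal of a GC trend (spline, 5 degrees of freedom) and leaving out each library. Steps were tested on simulated data. The members and lists were chosen with earlier results of these data known. Named members are the C-type isoforms, the 2 highest per kilobase in each cluster, and up to 3 per cluster and pairwise comparison with the smallest p among those called. Of the lists, up to 4 genes with the smallest p were named, with MPHOSPH8, CTCF, SMCHD1 and BRCA1. Other members and list genes (such as PCDHB7, PCDHB9, PCDHB10, PCDHB13, PCDHB15, TASOR and PPHLN1) were chosen after their values were seen. Transcript sequence, GC content and order came from GENCODE v29, used for properties and not for coordinates.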

Additional observations from a re-analysis of the deposited data

Results flagged for a closer look

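The resistance effect of 13 named members differed between backgrounds by the test of the difference itself (edgeR, adjusted over all genes tested). On the log2 scale, proficient minus deficient, the alpha members gave 1.67 (PCDHA4), 1.63 (PCDHA6), 0.77 (PCDHA10) and 0.66 (PCDHAC1). The beta members gave 1.63 (PCDHB2), 2.14 (PCDHB5), 3.33 (PCDHB11) and 3.03 (PCDHB14), and the gamma members 2.70 (PCDHGA4) and 3.29 (PCDHGB2). The fitted values of PCDHB8 (12.64), PCDHB16 (9.61) and PCDHGA7 (8.48) involve a group with 0 to 2 counts, depend on the prior count and are no bounds. All 13 were higher in proficient cells, and the call of PCDHAC1 was lost without either parental deficient library, without resistant deficient replicate 2, without either parental proficient library, without resistant proficient replicate 2, with the GC trend removed and with DESeq2.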

How the results depend on the processing

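Counts of called members between resistant and parental proficient cells ran from 38 to 46 higher and 0 lower when each library was left out, and from 37 (DESeq2) to 47 (these groups alone) under the other settings. Leaving out each library gave 10 to 16 higher and 3 to 4 lower for resistance in deficient cells, 6 to 9 and 5 to 7 for BRCA1 state in parental cells, 38 to 41 and 1 to 2 in resistant cells, and 19 to 24 and 0 to 1 for the difference of the resistance effects. With the deficient groups fitted alone 9 members were higher, with fewer members tested. DESeq2 left 1 member lower between resistant groups. PCDHGB4 was the 1 lower member in the difference of effects with the replicate block, with the GC trend removed and without parental proficient replicate 2; the cause was not tested. The replicate block changed no other count by over 1.5 times. For sums, the log2 ratio of beta in deficient cells turned from 0.27 to -0.92 when the median of the members replaced the sum, and that of gamma between parental cells turned to -0.01 with library totals alone. No scaling moved the median of all genes by 0.1. Depth limits members near 0 counts, such as PCDHA11, PCDHGC4 and PCDHGC5.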

Other observations

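PCDHB17P, a pseudogene of the beta cluster and outside the symbol rule, stood at 1.03, 0.614, 0.622 and 4.08 CPM in parental deficient, resistant deficient, parental proficient and resistant proficient cells. Its log2 change in proficient cells was 2.69 ± 0.39 (edgeR adjusted p = 0.000143), and in deficient cells it was -0.75 ± 0.42 (0.150).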
